A study of Mus musculus with 11 samples.

Results

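Positions of SA1 were compared with positions of the cohesin ring in wild-type MEFs, which are fibroblasts cultured from mouse embryos. The SA1 positions were the 26602 peaks of the wild-type SA1 list. The ring positions were the wild-type SMC1 peaks (24000) and SMC3 peaks (15564) merged wherever they overlapped by at least 1 bp, which gave 24948 positions on 20 chromosomes (mm9). Merging all 3 lists gave 33628 positions, which were 57.3% of the 58646 positions formed from the 8 immunoprecipitation lists of the series. Each list came from chromatin immunoprecipitation followed by sequencing (ChIP-seq), in which DNA bound by a protein is recovered with an antibody and stretches with an excess of reads over an input DNA library are called as peaks.

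The embryos were taken at stage E12.5 from a mixed C57BL/6 x 129 Sv background, and the labels name no treatment of the cells. Wild-type cells supplied the SA1, SMC1 and SMC3 lists, from 1 sample each. The same background carrying an SA1-null genotype supplied the SA1-null lists used below as other readouts, and the input DNA of both sets was pooled over the 2 genotypes. How many embryos or cultures stand behind a library is not in the labels. By their names, the wild-type SA1 list and both SA2 lists had the same input library as reference, and the SMC1 and SMC3 lists had the other. A difference between SA1 and the ring therefore cannot be told apart from a difference between the inputs or between the antibodies. The lists give a chromosome, a start and an end, with no height, so sequencing depth and peak strength are unknown, and a missing peak is not evidence of a missing protein. In such bulk samples, binding in fewer cells cannot be told apart from less binding per cell.

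Cohesin is a ring built from the coiled-coil proteins SMC1 and SMC3 and a kleisin subunit, RAD21 in somatic cells. A further subunit, SA1 or SA2 (STAG1 or STAG2), binds the kleisin and is needed for stable association of the ring with chromatin. Cohesin holds sister chromatids together and extrudes chromatin loops, and along the genome of mammalian cells it accumulates where the insulator protein CTCF is bound. Because SA1 acts as part of a ring, an SA1 peak would be paired with SMC1 and SMC3 peaks wherever all 3 libraries detected the same complex.

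SA1 and ring peaks lay together at most positions, and the largest class held all 3 subunits. Of the 33628 positions, 12842 had SA1, SMC1 and SMC3 (38.2%, 95% Wilson interval 37.7 to 38.7%). A further 4506 had SA1 and SMC1 without SMC3 (13.4%), and 417 had SA1 and SMC3 without SMC1 (1.24%). SA1 alone made up 8719 positions (25.9%, interval 25.5 to 26.4%). Without SA1 there were 1691 positions of SMC1 and SMC3 together (5.03%), 4897 of SMC1 alone (14.6%) and 556 of SMC3 alone (1.65%). These and the later intervals cover the counting of peaks within the lists and nothing else, and with 1 sample per group no test was made.

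**Figure D1:**
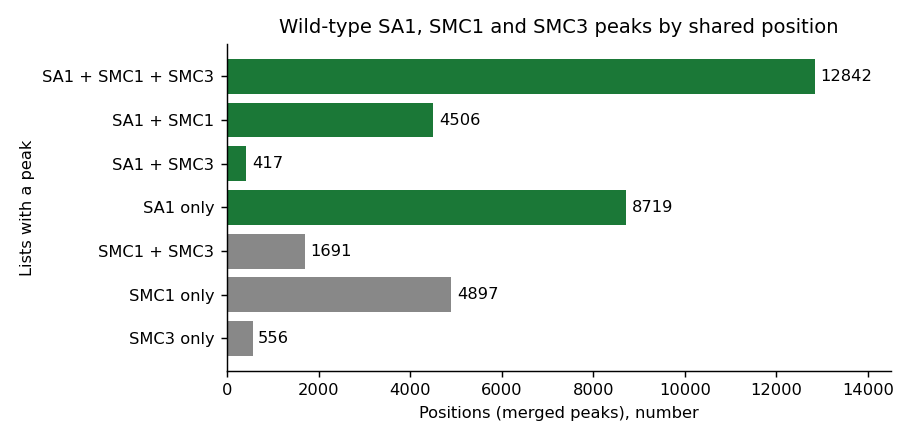
Number of merged wild-type positions (horizontal axis) by the lists that had a peak there (vertical axis), with green bars for classes that include SA1 and grey bars for those that do not. The class with all 3 subunits is the longest, at 12842 positions, followed by SA1 alone at 8719 and SMC1 alone at 4897.

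Seen from SA1, 17883 of 26602 peaks had a ring position, which set the background share at 67.2% (interval 66.7 to 67.8%). A ring position with both SMC1 and SMC3 was present at 12935 SA1 peaks (48.6%, interval 48.0 to 49.2%). Of the rest, 4529 met a position of SMC1 alone (17.0%) and 419 met a position of SMC3 alone (1.58%), in the order in which the SMC lists differ in length. No ring position was present at 8719 SA1 peaks (32.8%, interval 32.2 to 33.3%).

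Seen from the ring, 17804 of 24948 positions had an SA1 peak, a background share of 71.4% (interval 70.8 to 71.9%). This share depended on how many ring subunits were called. SA1 was present at 12846 of 14537 positions with both SMC1 and SMC3 (88.4%, interval 87.8 to 88.9%). It was present at 4536 of 9433 positions with SMC1 alone (48.1%, interval 47.1 to 49.1%) and at 422 of 978 positions with SMC3 alone (43.1%, interval 40.1 to 46.3%). Positions with both subunits exceeded those with 1 subunit by 40.7 percentage points (95% Newcombe interval 39.6 to 41.8), and by 25.8 points when only the widest 50% of each of the SA1, SMC1 and SMC3 lists was kept. The 7144 ring positions without SA1 were made up mostly of SMC1 alone (68.5%), with both subunits at 23.7% and SMC3 alone at 7.78%. Among ring positions with SA1 these shares were 25.5%, 72.2% and 2.37% in that order.

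Where SA1 and ring met, the peaks lay on top of each other. In 17622 cases 1 SA1 peak met 1 ring position that met no other SA1 peak. The midpoints of these pairs were a median of 43 bp apart, and 15341 pairs (87.1%) had midpoints within 100 bp. The offset had no preferred side, with a median of 0 bp. A median of 96.5% of the SA1 peak and 86.1% of the ring position was shared, and 38.9% of the SA1 peaks lay wholly inside their ring position. Over the lists as a whole, 9.29 Mb was common to SA1 and ring, 64.3% of the length covered by SA1 peaks and 60.8% of that covered by ring positions. Few calls lay near the minimum overlap: 13 SA1 peaks shared fewer than 50 bp with a ring position, and 26 SA1 peaks without a ring position had one within 50 bp.

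Few unpaired peaks lay within 1 kb of the other list. Within 10 kb were 30.1% of unpaired SA1 peaks and 31.7% of unpaired ring positions. The distances were not compared with those that the density of the lists alone would give. SA1 peaks without a ring position were a median of 26.5 kb from the nearest one (quartiles 7.33 and 82.9 kb), and 522 of 8719 were within 1 kb (5.99%). For 10% of them the nearest ring position was more than 253 kb away. Ring positions without SA1 were a median of 20.9 kb from the nearest SA1 peak (quartiles 6.66 and 47.5 kb), and 492 of 7144 were within 1 kb (6.89%). The most distant 10% of these began at 87.7 kb, so the long distances were on the side of SA1.

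Wider SA1 peaks had a ring position more often. The share was 40.9% (interval 39.0 to 42.8%) in the narrowest 10% of SA1 peaks, which were 161 to 361 bp wide. It was 69.6% in the fifth of 10 width classes (497 to 534 bp) and 87.3% (interval 86.0 to 88.5%) in the widest 10%, from 715 bp. For ring positions with both subunits the shares in these 3 classes were 23.2%, 47.7% and 73.5%. Median SA1 peak width was 586 bp (quartiles 493 and 674) with both ring subunits, 527 bp with SMC1 alone, 518 bp with SMC3 alone and 461 bp (quartiles 386 and 556) without a ring position. Width stands in for strength here only because no height was given, and the lists do not show how the 2 are related.

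Ring positions followed another course. The share with an SA1 peak climbed from 46.3% in the narrowest 10% of ring positions (189 to 415 bp) to 88.3% (interval 87.0 to 89.5%) in the ninth of 10 width classes (716 to 777 bp), and was 75.6% (interval 73.9 to 77.3%) in the widest 10%. The lower value at the top was present in each kind of ring position. With both subunits, the ninth class gave 94.5% of 2228 positions and the widest class 87.0% of 1973. With 1 subunit, the shares were 52.7% of 915 in the fifth class, 36.7% of 267 in the ninth and 32.4% (interval 28.6 to 36.6%) of 521 in the widest. Positions of 1 subunit were narrower, with a median of 505 bp against 661 bp. When both kinds were weighted to the same 10 width classes, SA1 was at 85.4% of positions with both subunits and 46.5% of those with 1, close to the unweighted 88.4% and 47.6%. A position of both subunits is the merged span of SMC1 and SMC3 peaks, so it can be wider than each of them. The weighting therefore matches the width of positions and not that of the peaks inside them.

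**Figure D2:**
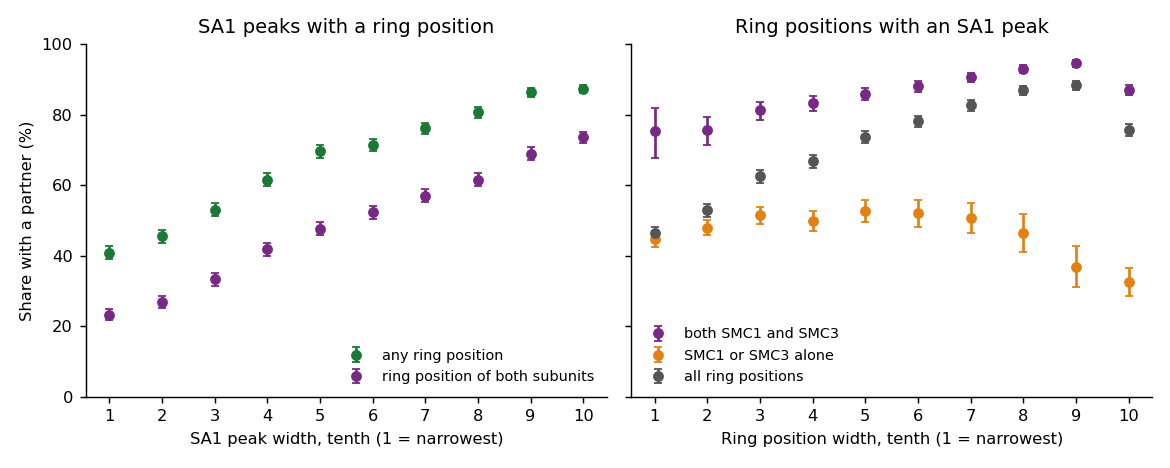
Share of SA1 peaks with a ring position (left, green for any and purple for both subunits) and share of ring positions with an SA1 peak (right, purple for both subunits, orange for 1 subunit, grey for all), by class of width from narrowest to widest, with 95% Wilson intervals as bars. The left shares climb with width to 87.3% and 73.5%, while on the right the widest class lies below the ninth in each group, and the 2 kinds of ring position stay apart at every width. Widths on the right are those of merged positions, so the 2 kinds are not matched in the width of their peaks.

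SA2, the alternative to SA1 in the complex, was called against the same input as SA1, and its peaks were most frequent where SA1 met both ring subunits. Of all SA1 peaks, 20.1% had a wild-type SA2 peak. The share was 31.6% (4089 of 12935, interval 30.8 to 32.4%) where both ring subunits were called, 15.0% (742 of 4948, interval 14.0 to 16.0%) where 1 was called and 5.99% (522 of 8719, interval 5.51 to 6.50%) where none was. Weighted to the same width classes, the shares were 28.4%, 15.2% and 7.73%. The SA2 list of SA1-null cells gave a like order, with 21.6% of all SA1 peaks, 36.1% with both subunits, 13.4% with 1 and 4.83% with none. The shares at SA1 peaks with no ring position depended on which peaks were kept. With the widest 50% of each of the 3 lists they were 17.3% for wild-type SA2 and 18.3% for SA1-null SA2, against 36.9% and 44.9% at SA1 peaks with a ring position. With the 3 lists kept to equal lengths by width they were 12.0% and 11.2%. Peaks whose partner was dropped count as unpaired in both settings, while the SA2 lists were kept whole.

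In the full lists, few ring positions without an SA1 peak had an SA2 peak. Over all ring positions 19.7% had a wild-type SA2 peak and 21.7% an SA1-null SA2 peak. At ring positions with SA1 the wild-type share was 27.1% (4825 of 17804), and at those without SA1 it was 1.22% (87 of 7144, interval 0.988 to 1.50%). The latter share was 13.5% with the widest 50% of each list and 9.64% with equal lengths, and that of SA1-null SA2 moved from 1.05% to 12.1% and 8.16%. Among the 1691 positions of SMC1 and SMC3 without SA1, 49 had wild-type SA2 (2.90%, interval 2.20 to 3.81%) and 54 had SA1-null SA2 (3.19%). Among the 556 of SMC3 alone, no wild-type SA2 peak was present (upper bound of the interval 0.686%). The SA2 list held 7741 peaks, so most positions of every class were without one.

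The SA1-null SMC1 and SMC3 lists were read at the same positions. They have the antibody targets and the input of the wild-type SMC lists that formed the ring positions. Their agreement with those lists is therefore not an independent detection of the ring. An SA1-null SMC1 peak was present at 80.4% of all SA1 peaks and at 92.6% of all ring positions, and an SA1-null SMC3 peak at 75.7% and 89.3%. At SA1 peaks with both wild-type ring subunits these shares were 99.7% (SMC1) and 99.4% (SMC3). With 1 wild-type subunit they were 93.3% and 87.9%. With no wild-type ring position they were 44.6% (3886 of 8719, interval 43.5 to 45.6%) and 33.7% (2941 of 8719, interval 32.7 to 34.7%). Weighting to the same width classes moved the last pair to 48.8% and 37.8%. With the widest 50% of each of the SA1, SMC1 and SMC3 lists the pair was 76.5% and 69.6%, and with equal lengths 63.8% and 53.8%.

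In the full lists, SA1 peaks without a wild-type ring position thus fell into those with a ring peak in SA1-null cells and those with none. Both SA1-null subunits were present at 2442 of the 8719 (28.0%), SMC1 alone at 1444 (16.6%), SMC3 alone at 499 (5.72%) and neither at 4334 (49.7%, interval 48.7 to 50.8%). The last group was the narrowest, with a median of 439 bp against 496 bp where both were present. Wild-type SA2 accompanied 172 of these 4334 (3.97%, interval 3.43 to 4.59%) and 235 of the 2442 (9.62%, interval 8.52 to 10.9%). The split is not given for all SA1 peaks, of which 80.4% had SA1-null SMC1 and 75.7% SA1-null SMC3. The size of the group with neither depends on which peaks are kept. With the widest 50% of each of the 3 wild-type lists, 76.5% of SA1 peaks without a ring position had SA1-null SMC1.

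Full ring positions are those with both SMC1 and SMC3. A peak of at least 1 SA1-null ring subunit was almost as frequent at those without SA1 as at those with it. Some SA1-null SMC1 or SMC3 peak was present at 1660 of 1691 positions without SA1 (98.2%, interval 97.4 to 98.7%) and at 12828 of 12846 with SA1 (99.9%). For positions of SMC1 alone the shares were 81.4% of 4897 without SA1 and 96.0% of 4536 with it. For SMC3 alone they were 63.8% of 556 without SA1 (interval 59.8 to 67.7%), and with it 401 of 422 had such a peak. Taken singly at full ring positions, SA1-null SMC1 was at 96.5% without SA1 and 99.7% with it. SA1-null SMC3 was at 94.6% and 99.4%. Over all ring positions these lists gave 92.6% (SMC1) and 89.3% (SMC3). The share of full ring positions with both SA1-null subunits together is not given here. The SA1-null SMC1 and SMC3 lists are longer than the wild-type lists (47003 and 34802 peaks), and the name of the former gives 2 samples in 1 list.

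**Figure D3:**
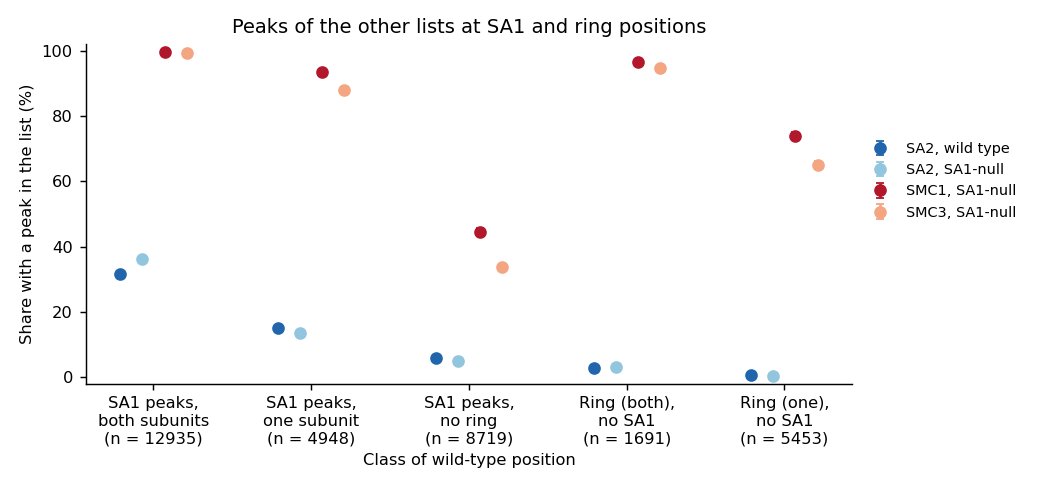
Share of positions with a peak in 4 lists that were not used to form the classes (vertical axis), for SA1 peaks by ring subunits and for ring positions without SA1, with 95% Wilson intervals that are mostly smaller than the points. SA2 (blue) falls from 31.6% at SA1 peaks with both subunits to 5.99% at those with no ring, and full ring positions without SA1 pair a high SA1-null SMC1 share of 96.5% with a wild-type SA2 share of 2.90%. The SA1-null SMC lists share antibody targets and input with the wild-type SMC lists, and the SA2 lists share an input with SA1.

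Few of the unpaired positions overlapped a background list. The SA1 and ring lists were called against the input libraries, so a low overlap with the input lists was in part set by the calling. The SA1-null SA1 list, in which the SA1 antibody met cells without its target, held 177 peaks. It overlapped none of the 17883 SA1 peaks with a ring position and 12 of the 8719 without one (0.138%), against 0.0451% of all SA1 peaks. It also overlapped 18 of the 7144 ring positions without SA1 (0.252%) and none of the 17804 with SA1, against 0.0722% of all ring positions. At SMC3 alone without SA1 the share was highest, 12 of 556 (2.16%, interval 1.24 to 3.73%). The input list of the SA set overlapped 10 of these 556 (1.80%), against 0.0922% of all ring positions. Of SA1 peaks without a ring position, 37 (0.424%) overlapped the input list of the SMC set, against 0.184% of all SA1 peaks. Removing every position in these lists left 67.3% of SA1 peaks with ring and 71.4% of ring positions with SA1.

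By chromosome, the autosomes varied, and chromosome X lay outside their range in the pairing of SA1 peaks and of ring positions. On the 19 autosomes 67.6% ± 3.09 (SD) of SA1 peaks had a ring position. The range was from 62.2% (interval 59.2 to 65.1%) on chromosome 14 to 75.5% (interval 72.3 to 78.5%) on chromosome 19. Of ring positions, 71.3% ± 1.81 had SA1, from 68.0% on chromosome 4 to 74.3% on chromosome 16. On chromosome X, 416 of 765 SA1 peaks had a ring position (54.4%, interval 50.8 to 57.9%) and 418 of 517 ring positions had SA1 (80.9%, interval 77.2 to 84.0%). Chromosome X had 1.48 SA1 peaks per ring position, against 1.06 ± 0.0564 on autosomes. Its ring positions also had both subunits less often, 47.2% (interval 42.9 to 51.5%) against 58.5% ± 0.972.

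At full ring positions SA1 was present at 90.2% on X (interval 85.8 to 93.3%) and at 88.5% ± 1.65 on autosomes. The higher share of X ring positions with SA1 was not seen in the settings that kept fewer peaks by width. With the widest 50% of each list it was 54.6%, against 55.2% over all chromosomes, and with equal lengths 53.9% against 55.4%. These settings change length and width together. The low share of X SA1 peaks with ring was 38.0% with the widest 50%, against 57.9% over all chromosomes. It was 31.0% with SMC3 alone as the ring, against 50.1%, and 28.8% with both subunits required, against 48.6%. Embryo sex is not in the labels, and the part of X copy number in these shares was not tested.

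**Figure D4:**
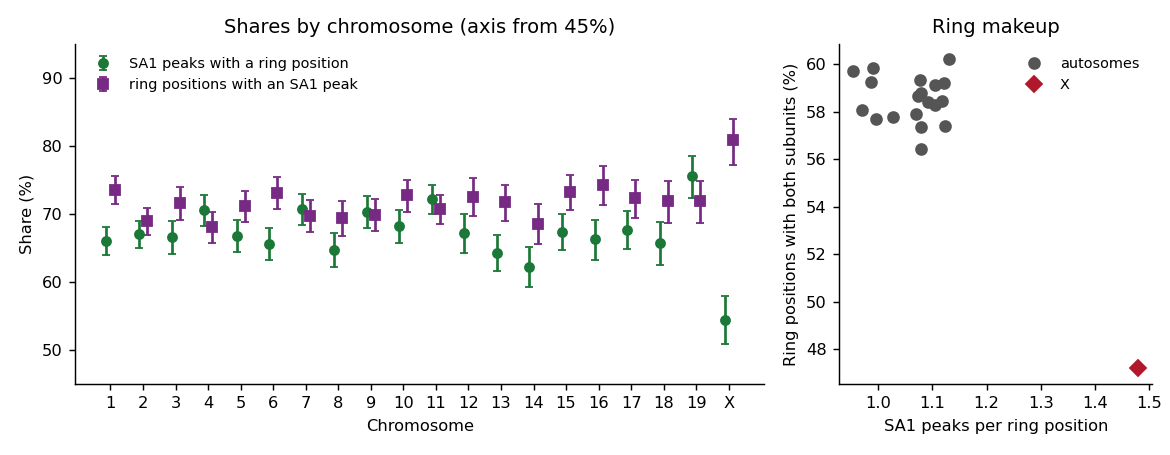
Left, share of SA1 peaks with a ring position (green circles) and of ring positions with an SA1 peak (purple squares) on each chromosome, with 95% Wilson intervals and an axis that begins at 45%; right, the percentage of ring positions with both subunits against SA1 peaks per ring position. The 2 shares lie closer together on each autosome than on chromosome X, where they are 54.4% and 80.9%. Chromosome X is also the point away from the autosomes on the right, at 1.48 and 47.2%.

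Along the chromosomes SA1 and ring rose and fell together, and their ratio differed between windows poor and rich in cohesin peaks. Across 2544 windows of 1 Mb the counts of SA1 peaks (median 10, at most 43) and ring positions (median 8, at most 49) had a Pearson r of 0.913 and a Spearman rho of 0.923. Neighbouring windows share libraries, so this is a description. SA1 peaks outnumbered ring positions in 1376 windows, the reverse held in 749, and 419 were equal. In 219 windows SA1 was present with no ring position, and in 21 the ring was present with no SA1.

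Windows were then put in 5 classes by their SA1-null SMC1 peaks. That list has the antibody target and the input of the wild-type SMC1 list, which supplies most ring positions, so windows poor in it are in part windows chosen to be poor in ring positions. The values by this ordering are a description. In the 509 windows with the fewest, 843 SA1 peaks faced 251 ring positions, 3.36 SA1 peaks per ring position, and 20.2% of the SA1 peaks had a ring position (interval 17.6 to 23.0%). The next classes had 1.49, 1.17 and 1.03 SA1 peaks per ring position, with 52.9%, 65.5% and 69.0% of SA1 peaks paired. In the 508 windows with the most, 10217 SA1 peaks faced 11169 ring positions, a ratio of 0.915, and 75.1% of the SA1 peaks had a ring position (interval 74.3 to 75.9%). The share of ring positions with SA1 did not follow this order, at 67.3%, 78.6%, 76.6%, 71.0% and 68.3%. For the poorest and richest classes it was 48.9% and 67.5% in windows of 500 kb. With both subunits required it was 86.0% and 87.2%. The poorest class stood above the richest in 5 of 11 alternative settings, so their order was not stable.

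Ordering the windows by wild-type SA2 peaks, which share their input with SA1, gave a gradient in the same direction and a flatter one. SA2 peaks were at 27.0% of SA1 peaks with a ring position and at 5.99% of those without. Windows rich in SA2 are therefore in part windows chosen to be rich in paired SA1 peaks, and this ordering is a description too. The ratio was 1.35, 1.25, 1.15, 1.05 and 0.949 SA1 peaks per ring position, and 49.1%, 58.0%, 64.0%, 68.5% and 75.2% of SA1 peaks had a ring position. On autosomes alone the SMC1 ordering ran from 3.13 to 0.909. In windows of 500 kb the poorest class by SMC1 had a ratio of 6.55 in place of 3.36, and 7.31% in place of 20.2% of its SA1 peaks paired. Its ratio was 6.44 with SMC3 alone as the ring and 9.06 with both subunits required, with 10.9% and 9.61% of its SA1 peaks paired. Under those 2 definitions the richest class had ratios of 1.47 and 1.56, above 1, so the richest class was still below the poorest but no longer below 1. The widest 50% of each list left 12.7% paired in the poorest class. Of unpaired SA1 peaks in windows, 29.6% lay in the class with the most SA1-null SMC1 peaks, which held 38.9% of all SA1 peaks, and 7.82% in that with the fewest, which held 3.21%.

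**Figure D5:**
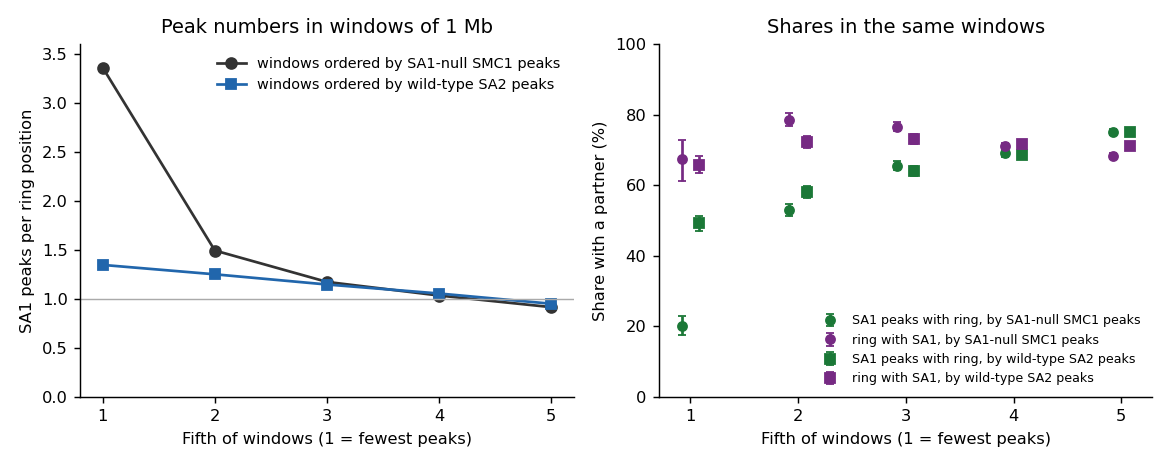
SA1 peaks per ring position (left, with a grey line at 1) and share of SA1 peaks with ring (green) or ring positions with SA1 (purple, right; bars are 95% Wilson intervals) in 5 classes of 1 Mb windows, ordered by SA1-null SMC1 peaks (circles) or wild-type SA2 peaks (squares). SA1 peaks outnumber ring positions 3.36 to 1 in the poorest class by SMC1 and 1.35 to 1 by SA2, against 0.915 and 0.949 in the richest, values that by SMC1 are 6.44 and 1.47 when the ring is SMC3 alone.

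The local neighbourhood differed in the same way. Apart from their own partner, SA1 peaks with a ring position had a mean of 1.81 ring positions within 50 kb, and SA1 peaks without one had 1.41. No other ring position within 50 kb was found for 21.7% of the first kind and 35.9% (interval 34.9 to 36.9%) of the second. In SA1 neighbours the 2 kinds were closer, with means of 1.81 and 1.67. Ring positions without SA1 lay in the densest ring surroundings, with a mean of 2.20 other ring positions within 50 kb against 1.82 for those with SA1, while both had 1.79 SA1 neighbours. The nearest other SA1 peak had a ring position for 72.2% of paired SA1 peaks and 59.5% (interval 58.4 to 60.5%) of unpaired ones.

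Single positions were named by peak width, since neither a height nor an mm9 gene annotation was used here. Among SA1 peaks with both ring subunits the 5 top-ranked were at chr10:17441434-17443631, at chr1:90183387-90185128, at chr9:41758032-41759761, at chr11:100143113-100144434 and at chr7:148233978-148235245 (mm9). Their SA1 peaks were 2198, 1742, 1730, 1322 and 1268 bp wide, and their ring positions covered nearly the same stretch, for example 17441372 to 17443512 on chromosome 10. All 5 were also present in the SA1-null SMC1 and SMC3 lists, as were 99.7% and 99.4% of all SA1 peaks with both ring subunits. Those on chromosomes 1, 9 and 11 had a wild-type SA2 peak, against 31.6% of all SA1 peaks with both ring subunits.

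The widest SA1 peaks without a ring position were at chr1:90172375-90174983 (2609 bp), at chr1:77509683-77511932 (2250 bp), at chr2:46298034-46300061 (2028 bp), at chr10:36858029-36860028 (2000 bp) and at chr1:62750005-62751789 (1785 bp). All 5 had an SA1-null SMC1 peak, and those at 77509683 on chromosome 1, on chromosome 2 and on chromosome 10 also had an SA1-null SMC3 peak. Wild-type SA2 was present at 77509683 on chromosome 1 and on chromosome 2. Over all SA1 peaks without a ring position these shares were 44.6% (SMC1), 33.7% (SMC3) and 5.99% (SA2). None of the 5 overlapped an input list or the SA1-null SA1 list, and few of all such peaks did.

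Full ring positions without SA1 reached comparable widths. The 5 top-ranked were at chr3:145310263-145313653, at chr11:86394372-86397370, at chr8:129021263-129022724, at chr2:13343318-13344769 and at chr4:88956130-88957507. Their SMC1 peaks were 3079, 1369, 1460, 1452 and 1378 bp wide and their SMC3 peaks 2853, 2999, 1138, 1133 and 1172 bp. All 5 had SA1-null SMC1 and SMC3 peaks, none was in a background list, and that on chromosome 8 had a wild-type SA2 peak. Over all full ring positions without SA1 the shares were 96.5% (SMC1), 94.6% (SMC3) and 2.90% (SA2). Background lists were as rare over the whole class. The SA1-null SA1 list was at 0.177%, the input list of the SA set at 0.177% and that of the SMC set at 0.0591%.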

How the data were processed

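The authors deposited interval lists without scores (chromosome, start and end). Coordinates are mm9 and the software named is CASAVA 1.7, per the submitters' processing notes. No source used here names the aligner or the peak caller, or how the input lists were made. FDR10 in the list names was taken as a false discovery rate of 10%. BED starts, counted from 0, were raised by 1 for printing.

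SMC1 and SMC3 peaks overlapping by 1 bp or more were merged into ring positions, and an overlap of 1 bp counted as shared. Windows of 1 Mb were taken whole between the first and last interval of a chromosome, with peaks placed by midpoint. Width classes hold equal numbers. Shares carry 95% Wilson intervals. The named positions are the 5 top-ranked of each of 3 kinds, by the mean percentile of the widths of their peaks, since the lists hold no score. The rule called for gene names only with an mm9 annotation, which was not used here, so no sequence is printed. Python 3.11.15, numpy 2.4.6, scipy 1.17.1 and matplotlib 3.10.9 were used. The counting code was checked on 24948 simulated ring positions, some of which had an SA1 peak planted to overlap them. Of the planted positions 100% were found. The planting fixes that outcome for correct code, so it says nothing about detection in the real lists. In the real lists 24 of 24 counts equalled those of bedtools 2.31.1.

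The comparison, classes and alternatives were chosen with earlier results of these data known. The alternatives were another overlap rule, merging, removal of background, width thresholds, equal list lengths, omission of chromosome X and other ring definitions. Windows of 500 kb were added after the window results were seen.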

Additional observations from a re-analysis of the deposited data

How the results depend on the processing

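No paired analysis was possible because each group compared had 1 sample. The share of SA1 peaks with a ring position (67.2%) moved beyond its interval to 66.0% with midpoints within 250 bp, 67.9% with intervals closer than 1000 bp merged, 57.9% with the widest 50% of each list, 70.8% with lists cut to 15564 peaks by width, 65.6% with SMC1 alone as the ring, 50.1% with SMC3 alone and 48.6% with both required. In the same order the share of ring positions with SA1 (71.4%) was 70.3%, 72.4%, 55.2%, 55.4%, 72.5%, 85.4% and 88.4%. The difference between ring positions of both subunits and of 1 subunit (40.7 points) was 25.8 points with the widest 50% and 31.8 points with equal lengths. An overlap of 50% of the shorter interval, removal of background intervals and omission of chromosome X left these 3 values within their intervals. The width settings keep fewer possible partners, and a ring of SMC3 alone has fewer positions (15564).

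Counts moved by over 1.5 times in some settings. SA1 peaks with ring (17883) numbered 7702 with the widest 50% and 11015 with equal lengths, and ring positions with SA1 (17804) 7690 and 11004. SA1 peaks without ring (8719) numbered 5599 and 4549 there, 13279 with SMC3 alone and 13667 with both required. Ring positions without SA1 (7144) numbered 2270 and 1691 in the last 2 settings. The higher SA2 and SA1-null SMC1 and SMC3 shares at paired than at unpaired SA1 peaks and ring positions, and the greater median width of paired ones, held in all 10 planned settings. The sizes of the shares at unpaired positions did not hold. With SMC3 alone as the ring and with both required, wild-type SA2 was at 9.08% and 9.25% of unpaired SA1 peaks (5.99%) and SA1-null SA2 at 7.89% and 7.94% (4.83%). SA1-null SMC1 was at 61.4% and 62.2% of them (44.6%) and SA1-null SMC3 at 52.5% and 53.4% (33.7%). At unpaired ring positions wild-type SA2 was at 2.11% and 2.90% (1.22%) and SA1-null SA2 at 2.69% and 3.19% (1.05%). There SA1-null SMC1 was at 87.1% and 96.5% (79.3%) and SA1-null SMC3 at 84.2% and 94.6% (72.0%). Moves with the width settings stand beside those results. The ratio of SA1 peaks to ring positions was higher in the poorest than in the richest windows in these and with 500 kb windows. Depth is unknown, so weak binding below the calling threshold could not be seen.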

Other observations

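Stretches rich in one list and poor in the other could be placed. The window of 1 Mb with the most SA1 peaks and no ring position was on chromosome 6 from 77000001 to 78000000, with 12 SA1 peaks, 3 SA1-null SMC1 peaks, 1 SA1-null SMC3 peak and 1 wild-type SA2 peak. The next were on chromosome 1 from 114000001 (8 SA1 peaks), chromosome 2 from 55000001 (7) and chromosome 4 from 20000001 (7). The windows with the most ring positions without SA1 were on chromosome 2 from 167000001 to 168000000 (22 of 46 ring positions) and on chromosome 8 from 129000001 to 130000000 (22 of 43). The window on chromosome 8 contains one of the widest full ring positions without SA1 given above. It held 85 SA1-null SMC1 peaks and 62 SA1-null SMC3 peaks, against 43 wild-type ring positions. These windows were chosen after their values were seen.

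Pairing of SA1 peaks was more frequent towards the last end of the chromosomes than towards the first. In the last 5 Mb before the final interval of each chromosome 70.3% of 1305 SA1 peaks had a ring position (interval 67.8 to 72.8%), against 67.2% between the ends and 63.7% of 1002 (interval 60.6 to 66.6%) in the first 5 Mb. SA1 peaks per ring position were 0.986, 1.07 and 1.09 in that order. The share of ring positions with SA1 had no such gradient, at 69.2%, 71.6% and 68.6% in the same order. The alternative settings were not applied to the chromosome ends.

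Pairing was nearly always single. Of the SA1 peaks, 39 spanned 2 ring positions, and of the ring positions, 114 held 2 SA1 peaks and 2 held 3.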
